A study of Mus musculus with 3 samples.

Results

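The nuclear hormone receptors described here are 46 genes of the nuclear receptor family, chosen by gene symbol, out of 24346 genes in a table of RNA levels in adult lung endothelial cells (ECs). They fall into 19 subgroups of the family's standard naming system (NR1A to NR0B), and all 46 were found in the table. The study compared the vessels of the kidney with those of other organs, and 3 adult lung libraries of 1 condition, S38, S44 and S52 after their sample names, are analysed here. No other condition was analysed, so every value below is a description with no test between conditions. The ECs came from male, wild type C57BL/6J mice aged 6 to 8 weeks. An antibody against VE-cadherin was injected before organ harvest, the lungs were dissociated with collagenase, and CD31+ CD45- Podoplanin- cells were purified by FACS and not cultured. The labels do not say whether the libraries came from separate animals or pools, so the SDs below are the spread between libraries, which may be technical.

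Nuclear receptors are transcription factors that bind DNA through a zinc finger domain, and many of them are switched by small lipid-soluble ligands such as steroids, thyroid hormone, retinoic acid, oxysterols and fatty acids. Steroid receptors wait with heat shock protein chaperones and bind DNA as pairs of the same receptor. The thyroid hormone, retinoic acid, vitamin D, liver X (LXR) and peroxisome proliferator-activated (PPAR) receptors pair instead with a retinoid X receptor (RXR). Orphan receptors, such as the NR4A group, are set mainly by how much of them is made, and the REV-ERB receptors are repressors within the circadian clock.

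Levels are given in FPKM, RNA fragments scaled by gene length and by library size, so that genes of different length can be compared, and 3 values in a row are those of S38, S44 and S52 in this order. The FPKM of all genes in the table summed to 1.15e+06, 1.60e+06 and 1.42e+06. How level a gene looks across libraries therefore depends on the scaling, and values are as deposited unless rescaling is named. A mean over the libraries of 1 FPKM or more counted as detection. Of the 46 receptors, 26 (56.5%) were detected, beside 48.3% of all 24346 genes, and 11 (23.9%) reached 10 FPKM, beside 25.7% of all genes. The receptor nearest above the threshold was *Nr2f1* at 1.35 FPKM, and the nearest below it was *Nr5a2* at 0.686 FPKM. The median level of the 26 detected receptors was 6.75 FPKM (SD of the library medians 1.09), beside 11.2 FPKM for the 11770 detected genes. Most of the receptor RNA came from few genes. The summed level of all receptors was 505, 528 and 573 FPKM, and the highest 5 genes, *Nr4a1*, *Thra*, *Nr1h2*, *Rarg* and *Nr3c1*, held 64.8% ± 1.67 of it (SD, n = 3 libraries).

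**Figure D1:**
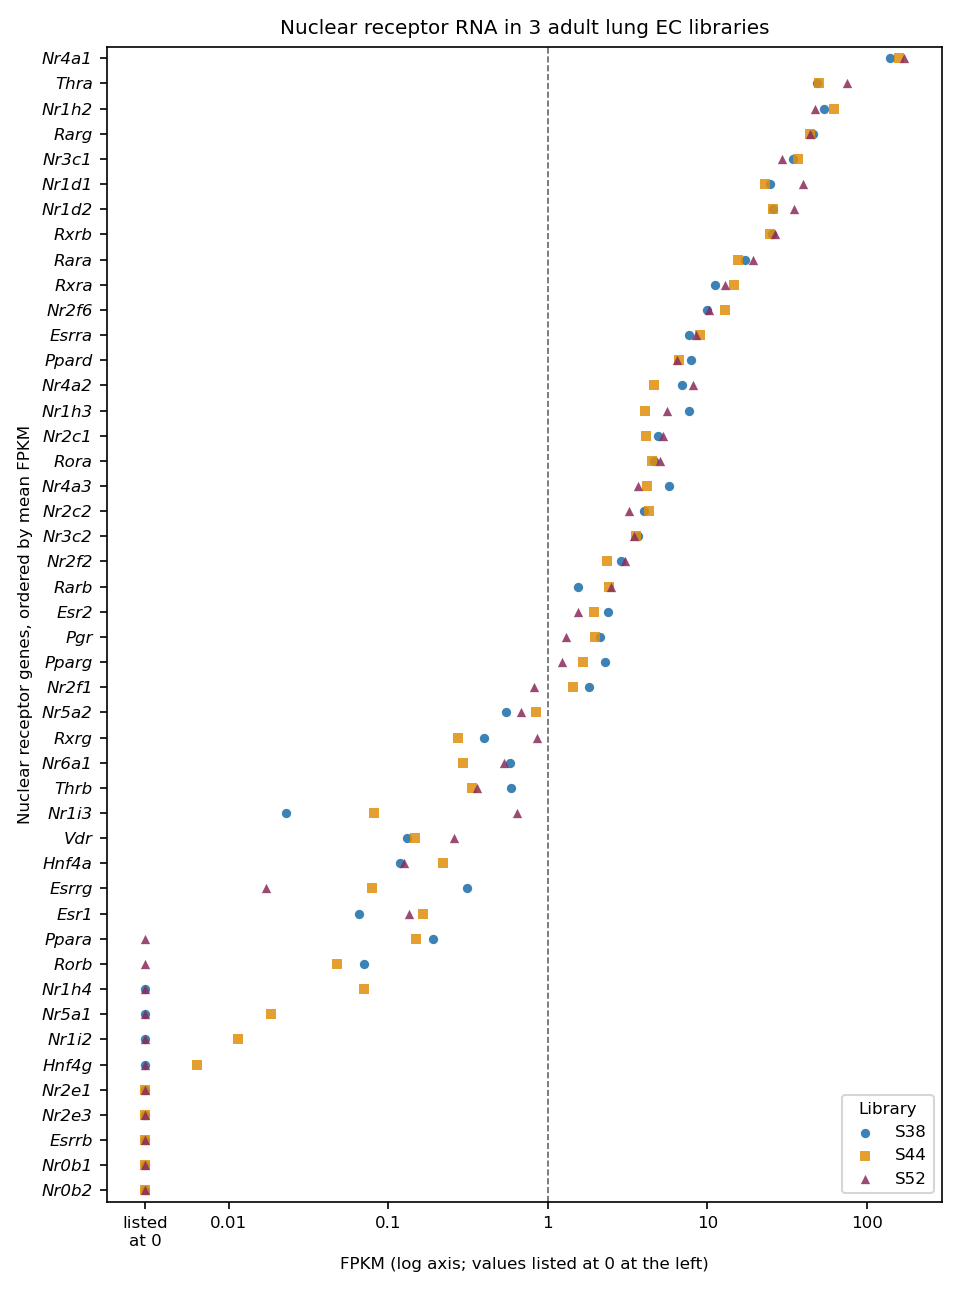
FPKM of each of the 46 nuclear receptor genes in libraries S38, S44 and S52, on a log axis and ordered by the mean, with values listed at 0 at the left and a dashed line at 1 FPKM. *Nr4a1* stands apart at the top, 26 genes have a mean of at least 1 FPKM, and 5 genes at the bottom are listed at 0 in all 3 libraries.

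The libraries were checked by fixed marker lists. All 10 endothelial genes were detected, with library medians of 482 to 533 FPKM and sums of 6369, 7058 and 6291 FPKM. The highest of them in S38 and S44 was *Cldn5*, at 1486 and 1732 FPKM. The alveolar type 2 gene *Sftpc* (3333, 2862 and 658 FPKM) and the airway gene *Scgb1a1* (2669, 2213 and 378 FPKM) were above it in S38 and S44 but not in S52. *Prox1*, the defining factor of lymphatic ECs, was at 0.132 to 0.598 FPKM, although *Lyve1*, which is also used to mark them, was at 390 to 597 FPKM. S52 stood apart in RNA of other lung and blood cells. It was the lowest library for 5 of 5 alveolar type 2 genes (sums of 3756, 3156 and 760 FPKM), 5 of 5 airway genes (2786, 2314 and 408 FPKM), 4 of 4 platelet genes (1692, 1345 and 37.96 FPKM) and 5 of 6 leukocyte genes (1079, 819 and 187 FPKM), and for 0 of 5 mural genes (115, 60.2 and 111 FPKM). S52 was also the lowest library for 4 of 4 erythroid genes, whose sums of 394, 789 and 94.6 FPKM were highest in S44. Most of the leukocyte sum was *Lyz2* (1047, 780 and 166 FPKM). The next leukocyte gene was *Cd68* (17.0, 27.4 and 16.7 FPKM), and *Ptprc* was at 4.30, 2.06 and 0.434 FPKM. Alveolar type 1 genes (348, 373 and 273 FPKM) and fibroblast genes (73.1, 56.0 and 41.9 FPKM) each had 2 of 4 lowest in S52. Of all detected genes, 46.3% were lowest in S52. The T cell gene *Cd3e* and the lymphatic gene *Ccl21a* were listed at 0 in S52, and no listed marker was at 0 in S38 or S44. In a bulk sample, fewer cells of a type and less RNA per cell cannot be told apart. The depth, estimated from the steps between low FPKM values, was 37800000, 39000000 and 34100000 fragments.

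The NR4A receptors, orphan factors that are induced within minutes to hours by many stimuli, were the most abundant group. *Nr4a1* (NUR77) measured 139.5 FPKM in library S38, 159 FPKM in library S44 and 171 FPKM in library S52, a mean of 156 ± 15.7 FPKM (SD, n = 3), and 97.6% of all genes in the table were lower. Its lowest library was far above the highest value of any other receptor, 75.1 FPKM for *Thra* in S52. *Nr4a2* (NURR1) was at 6.91, 4.64 and 8.12 FPKM in the same order of libraries. *Nr4a3* (NOR1) was at 5.70, 4.15 and 3.65 FPKM. The order *Nr4a1*, *Nr4a2*, *Nr4a3* was the same in each library, but the ranges of the lower pair overlap. *Nr4a1* held 93.3% ± 1.54 (SD, n = 3) of the NR4A sum, and the NR4A sum was 31.3% ± 0.995 of the RNA of all 46 receptors. A list of 9 genes known to be induced during tissue dissociation, *Fos*, *Jun*, *Egr1* and *Atf3* among them, was detected in full, with library medians of 271, 384 and 363 FPKM. Of these 9 genes, 3 were highest in S52, near the 33.9% of all detected genes. The NR4A sum was 152, 168 and 182 FPKM, but after rescaling each library to a common sum *Nr4a1* was lowest in S44 and highest in S38. Rescaled by the median ratio over genes instead, *Nr4a1* stayed lowest in S38 and highest in S52. Every library was dissociated and sorted, so the level in undisturbed tissue cannot be told apart from what isolation added.

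The 3 *Nr4a* promoters share repeats of a short motif, TGACG, the half-site of the cyclic AMP response element to which CREB and related factors bind. They are shown because the *Nr4a* genes carry 31.3% of the receptor RNA. The motif was chosen after these promoters had been seen. Sequences are those upstream of annotated RefSeq start sites on GRCm38.p6, 5′ to 3′ on the gene's strand, and capitals mark TGACG or its reverse complement CGTCA. The *Nr4a1* sequence is chr15:101266596-101266845 on the plus strand, and other annotated *Nr4a1* transcripts start farther upstream. The *Nr4a2* sequence is chr2:57124004-57124253 on the minus strand. For *Nr4a3*, on the plus strand, the 98 bases of chr4:48045055-48045152 are shown, since the rest of its 250 bases lies in an exon in GENCODE.
Nr4a1: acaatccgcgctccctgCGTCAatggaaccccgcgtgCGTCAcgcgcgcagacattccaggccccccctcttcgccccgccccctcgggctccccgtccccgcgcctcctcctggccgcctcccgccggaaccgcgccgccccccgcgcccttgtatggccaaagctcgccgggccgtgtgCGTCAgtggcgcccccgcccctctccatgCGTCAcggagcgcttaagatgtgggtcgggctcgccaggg
Nr4a2: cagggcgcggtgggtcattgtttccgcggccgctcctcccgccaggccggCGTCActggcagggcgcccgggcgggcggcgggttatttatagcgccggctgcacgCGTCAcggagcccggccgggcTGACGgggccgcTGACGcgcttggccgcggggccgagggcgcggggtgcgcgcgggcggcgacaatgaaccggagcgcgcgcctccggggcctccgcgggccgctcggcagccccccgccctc
Nr4a3: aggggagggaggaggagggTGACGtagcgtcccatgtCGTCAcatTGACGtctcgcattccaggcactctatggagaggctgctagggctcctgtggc
Counted on both strands over 250 bases, each of these promoters holds 4 sites, of which 3 are within the bases shown for *Nr4a3*. Of 32851 mouse promoters of this length, 45 (0.137%) hold 4 or more, and 17.8% hold any. The cutoff of 4 was taken from the *Nr4a* promoters, so that they pass it was fixed in advance and tests nothing. Their GC content over 250 bases is 74.4%, 80% and 63.6%, and the other promoters were not matched for it. The table holds 63 promoters of 42 receptors, of which 13 promoters (20.6%) hold any site and 3 (4.76%) hold 4 or more, those of the *Nr4a* genes. The full palindrome TGACGTCA was in 1 of 63 receptor promoters (1.59%), that of *Nr2e1*, which was listed at 0, and in 1.55% of all promoters. The half-site AGGTCA, which many nuclear receptors bind, was in 11 of the 63 (17.5%) and in 14.02% of all. The E-box CACGTG was in 5 (7.94%, beside 6.02% of all) and the GC box GGGCGG in 28 (44.4%, beside 32.7%). TGACGTCA contains TGACG. A match describes letters in the window and no binding was measured.

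Among the steroid receptors, RNA of the glucocorticoid receptor was well above that of the others. *Nr3c1*, which encodes it, was at 34.2, 37.0 and 29.3 FPKM (33.5 ± 3.89, SD, n = 3). *Nr3c2*, the mineralocorticoid receptor gene, was at 3.68, 3.55 and 3.46 FPKM. As deposited, it was 1 of the steadiest receptors, with a coefficient of variation (CV, SD over mean) of 3.03%. The progesterone receptor gene *Pgr* was at 2.12, 1.97 and 1.30 FPKM. *Nr3c1* exceeded *Nr3c2* by 9.39-fold ± 0.980 (SD, n = 3), and the 3 genes kept the same order in each library with no overlap between their ranges. Of the estrogen receptors, *Esr2* (ER beta) was at 2.38, 1.94 and 1.54 FPKM and *Esr1* (ER alpha) at 0.0651, 0.164 and 0.136 FPKM. *Esr2* was the higher of this pair in each library and held 93.8% ± 3.06 of their sum. At these depths the *Esr1* values stand for roughly 15.2, 39.6 and 28.6 fragments, so its RNA was present at a low level and its share is imprecise. The estrogen-related receptors bind no estrogen and act with PGC-1 coactivators on mitochondrial genes. *Esrra* was at 7.65, 9.03 and 8.44 FPKM, *Esrrg* at 0.313, 0.0796 and 0.0172 FPKM, and *Esrrb* was listed at 0.

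The 6 listed genes of chaperones that act on steroid receptors were all detected, led by *Hsp90ab1* at 754, 625 and 1210 FPKM, *Hsp90aa1* at 244, 194 and 511 FPKM, and *Ptges3* (p23) at 76.8, 72.2 and 89.9 FPKM. S52 was the highest library for 4 of the 6, beside 33.9% of all detected genes. HSP90 genes also respond to heat and handling of cells. The heat shock genes of the dissociation list, *Hspa1a* (108, 150 and 138 FPKM) and *Hspa1b* (125, 135 and 91.7 FPKM), were highest in S44. *Hsd11b1*, whose enzyme regenerates active glucocorticoid within cells, was at 47.9, 36.5 and 44.9 FPKM, whereas *Hsd11b2*, whose enzyme inactivates it, was at 0.973 to 2.52 FPKM and lowest in S52. Of 7 genes known as glucocorticoid receptor targets, 7 were detected, and the highest were *Dusp1* at 441, 366 and 432 FPKM, *Sgk1* at 213, 182 and 385 FPKM, and *Tsc22d3* (GILZ) at 125, 103.8 and 88.2 FPKM. *Dusp1* is also an immediate-early gene. *Fkbp5*, a further target of the receptor and a chaperone of it, was at 1.80 to 2.21 FPKM.

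RXR, the common partner of the lipid and vitamin receptors, was carried mainly by *Rxrb*. *Rxrb* was at 25.5, 24.7 and 26.4 FPKM and *Rxra* at 11.1, 14.6 and 12.9 FPKM, so that *Rxrb* was higher by 2.01-fold ± 0.304 (SD, n = 3). *Rxra* held 33.0% ± 3.54 of the RXR sum. *Rxrg* stayed under the detection threshold at 0.398, 0.275 and 0.852 FPKM. Partners were counted only from the NR1A, NR1B, NR1C, NR1H and NR1I groups, and no receptor of another group that can pair with RXR is included. Of the 14 receptors in these groups, 8 were detected. The summed RNA of these 14 was 186, 187 and 203 FPKM, which was 5.02, 4.71 and 5.05 times the RXR sum. RNA ratios do not give the ratio of the proteins.

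**Figure D2:**
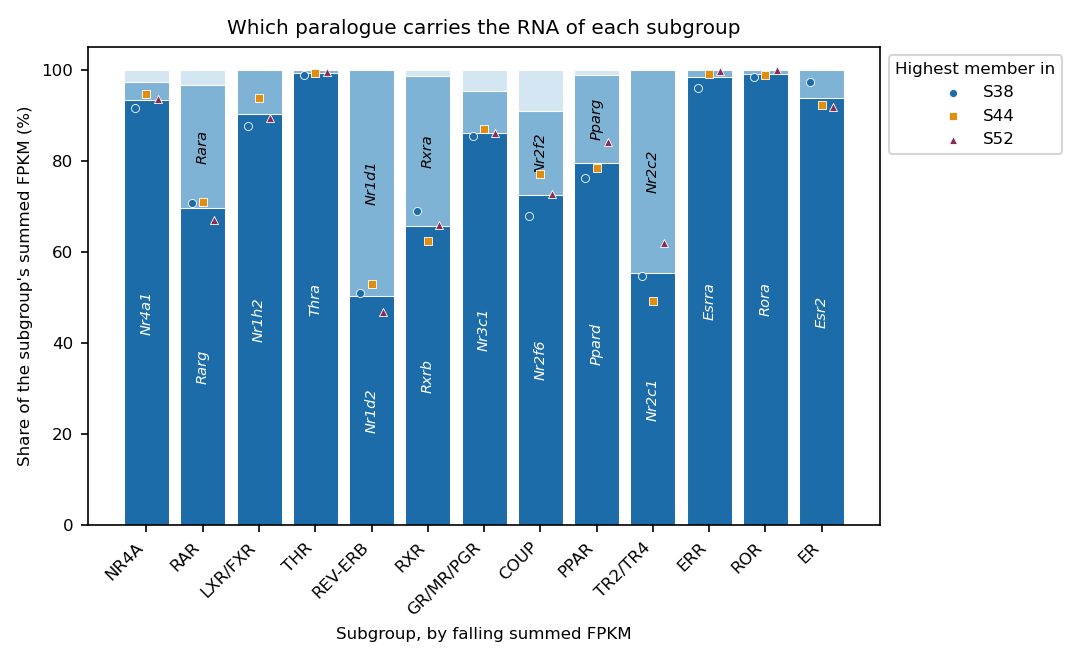
Share of each subgroup's summed FPKM held by its members, as stacked bars of the mean over 3 libraries, with points for the share of the subgroup's highest member in S38, S44 and S52. On average a single gene holds over 90% in the NR4A, LXR/FXR, THR, ERR, ROR and ER groups, while the REV-ERB and TR2/TR4 pairs are split nearly evenly.

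The retinoic acid receptors were all detected. *Rarg* was at 45.8, 43.8 and 44.1 FPKM, with a CV of 2.39% as deposited, *Rara* at 17.3, 15.5 and 19.2 FPKM, and *Rarb* at 1.55, 2.42 and 2.50 FPKM. *Rarg* exceeded *Rara* by 2.59-fold ± 0.263 (SD, n = 3) and held 69.6% ± 2.197 of the group's sum. *Rarb* shares 1793 of its 3392 exonic bases (52.9%) with *Top2b* on the opposite strand, which was at 24.6 to 30.3 FPKM, and the libraries kept no strand information, so reads in the shared bases cannot be told apart. Of 11 genes that make, carry or break down retinoids, 6 were detected. The highest were *Dhrs3*, a retinaldehyde reductase, at 85.2, 90.0 and 43.7 FPKM, *Aldh1a1*, a retinoic acid-forming dehydrogenase, at 94.1, 81.3 and 41.7 FPKM, and *Cyp26b1*, which degrades retinoic acid, at 17.2, 24.9 and 10.7 FPKM. These 3 were lowest in S52, as the alveolar type 2, airway and platelet genes were, whose part in this was not tested. Over the whole list of 11, 5 genes were lowest in S52 and 4 highest, beside 46.3% and 33.9% of all detected genes.

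RNA of the thyroid hormone receptors came from *Thra*, at 48.3, 50.1 and 75.1 FPKM, highest in S52, whereas *Thrb* was at 0.586, 0.332 and 0.357 FPKM. *Thra* held 99.2% of the pair's sum. The deiodinase genes *Dio1* and *Dio2* were below 0.2 FPKM in each library and *Dio3* was listed at 0. *Thra* and *Nr1d1*, which encodes REV-ERB alpha, overlap tail to tail on chromosome 11 (GRCm38, GENCODE), with 263 exonic bases in common between 98767932 and 98769006. This is 8.33% of the exonic bases of *Thra* and 9.67% of those of *Nr1d1*. Fragments from the overlap cannot be assigned to either gene by strand.

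Of the LXRs, the oxysterol sensors that control cholesterol export, the widely expressed *Nr1h2* (LXR beta) was at 54.1, 61.8 and 47.2 FPKM. *Nr1h3* (LXR alpha), which is typical of liver and macrophages, was at 7.67, 4.03 and 5.58 FPKM. *Nr1h2* held 90.3% ± 3.18 (SD, n = 3) of the group's sum, and the pair's ratio ranged from 7.05 to 15.3. All 6 LXR targets were detected, the highest being *Smpdl3a* at 132, 112 and 103 FPKM, *Mylip* (IDOL) at 28.2, 25.5 and 53.5 FPKM and *Lpcat3* at 28.4, 29.0 and 26.5 FPKM. *Ch25h*, whose enzyme makes an oxysterol ligand of LXR, was at 15.9, 41.7 and 18.04 FPKM. The bile acid receptor gene of the same group, *Nr1h4* (FXR), was above 0 only in S44, at 0.0706 FPKM.

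Among the PPARs, which bind fatty acids, *Ppard* led, at 7.83, 6.59 and 6.43 FPKM. *Pparg* was at 2.26, 1.67 and 1.22 FPKM. *Ppara* was at 0.190 and 0.149 FPKM in S38 and S44 and was listed at 0 in S52. *Ppard* held 79.5% ± 4.07 (SD, n = 3) of the PPAR sum. All 8 PPAR targets were detected. As deposited, *Cd36*, a fatty acid translocase, was almost level at 1505, 1517 and 1507 FPKM and *Plin2*, a lipid droplet protein gene, at 47.8, 48.8 and 49.8 FPKM. With each library rescaled to a common sum neither would be level, since the library sums differ. *Fabp4*, a fatty acid binding protein gene, was at 153, 70.2 and 24.0 FPKM. Its order of libraries was that of *Pparg* and of the sums of the alveolar type 2, airway, platelet and leukocyte lists given above. The part of those lists in this was not tested. The order was not particular to this pair, since *Ppard*, *Esr2* and *Pgr* had it too. Of the 8 targets, 5 had this order, and 6 were lowest in S52, beside 46.3% of all detected genes.

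The xenobiotic and vitamin D receptors were all under the threshold. *Vdr* was at 0.132, 0.146 and 0.259 FPKM. *Nr1i2* (PXR) was above 0 only in S44, at 0.0114 FPKM, which is about 1.06 fragments. *Nr1i3* (CAR) was at 0.0228, 0.0819 and 0.639 FPKM. It shares 2160 of its 3270 exonic bases (66.1%) with *Tomm40l* on the opposite strand, which was at 13.2 to 14.9 FPKM. Of 5 FXR, PXR and CAR targets, 1 was detected, *Cyp2b10* at 8.61, 5.10 and 7.74 FPKM, and 2 were listed at 0.

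Receptors of the circadian clock were highest in S52, apart from *Rorb* and, after rescaling to a common sum, *Rora*. The repressors *Nr1d1* and *Nr1d2* (REV-ERB alpha and beta) were at 24.8, 22.8 and 39.7 FPKM and at 25.8, 25.8 and 34.9 FPKM. Their ratio was 0.961, 0.885 and 1.14, so the order within the pair changed with the library. *Rora*, an activator that binds the same DNA elements, was at 4.60, 4.52 and 5.06 FPKM, and *Rorb* at 0.0704 and 0.0475 FPKM in S38 and S44 and listed at 0 in S52. Of 5 shared targets, 4 were detected. *Nfil3* was at 15.9, 16.0 and 21.0 FPKM, *Arntl* (BMAL1) at 12.7, 13.0 and 10.6 FPKM and *Clock* at 11.1, 10.4 and 12.3 FPKM. In this list 3 of 5 genes were highest in S52 and 2, *Arntl* among them, lowest, beside 33.9% and 46.3% of all detected genes. The time of day of each harvest is not in the labels.

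The other orphan receptors were at moderate to low levels. Of the COUP group, *Nr2f6* (EAR2) was at 9.88, 12.8 and 10.3 FPKM, *Nr2f2* (COUP-TFII), a venous and lymphatic identity factor, at 2.89, 2.34 and 3.04 FPKM, and *Nr2f1* (COUP-TFI) at 1.80, 1.44 and 0.814 FPKM. *Nr2f6* held 72.6% ± 4.71 (SD, n = 3) of the group's sum, but it shares 914 of its 2218 exonic bases (41.2%) with *Ocel1* on the opposite strand, which was at 7.02 to 9.89 FPKM. *Nr2c1* (TR2) was at 4.87, 4.15 and 5.28 FPKM and *Nr2c2* (TR4) at 4.01, 4.29 and 3.24 FPKM, an order that turned in S44. *Nr2c2* shares 3533 of 8113 exonic bases (43.5%) with *Mrps25*, which was at 8.99 to 10.2 FPKM. In all, 9 receptors share exonic bases with another gene, 7 of them with a protein-coding one. *Esrra* shares 73 bases with *Trmt112*, and *Rora* and *Nr3c2* share under 3% of theirs with noncoding genes.

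Receptors that define other tissues were low or listed at 0. *Nr5a2* (LRH-1), a liver and gut factor, was at 0.545, 0.838 and 0.676 FPKM, and the germ cell factor *Nr6a1* at 0.581, 0.295 and 0.534 FPKM. *Hnf4a*, a liver and kidney tubule factor, was at 0.119, 0.219 and 0.126 FPKM. *Hnf4g* and *Nr5a1* (SF-1), the adrenal and gonadal factor, were above 0 only in S44, at 0.00635 and 0.0183 FPKM. The neural and retinal factors *Nr2e1* (TLX) and *Nr2e3*, together with *Esrrb*, *Nr0b1* (DAX1) and *Nr0b2* (SHP), were listed at 0 in all 3 libraries. In a gene of 2000 bp, 3 fragments would give 0.0429, 0.0418 and 0.0478 FPKM, so a value of 0 does not exclude a level up to about this limit, counting error only. The values above 0 that lie under it, such as those of *Hnf4g* and *Nr5a1*, rest on few fragments. Of the 20 receptors that were not detected, 9 were above 0 in each library and 6 in 1 or 2 libraries.

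Most of the general cofactors were detected. Coactivators gave 8 of 10, led by *Ncoa3* (SRC-3) at 16.4, 20.5 and 22.0 FPKM, the mediator subunit gene *Med1* at 11.3, 10.6 and 11.5 FPKM and the acetyltransferase gene *Ep300* at 10.2, 9.94 and 10.3 FPKM. The exceptions were the PGC-1 genes *Ppargc1a*, at 0.922, 0.701 and 0.0838 FPKM, and *Ppargc1b*, at 0.0672 FPKM or below. Corepressors gave 8 of 9, led by 3 parts of the NCoR complex, *Gps2* at 35.4, 40.2 and 55.1 FPKM, *Tbl1x* at 23.6, 26.1 and 29.4 FPKM and the deacetylase gene *Hdac3* at 26.4, 23.7 and 19.4 FPKM. *Ncor1*, which the receptors bind, was at 19.4 to 25.8 FPKM.

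**Figure D3:**
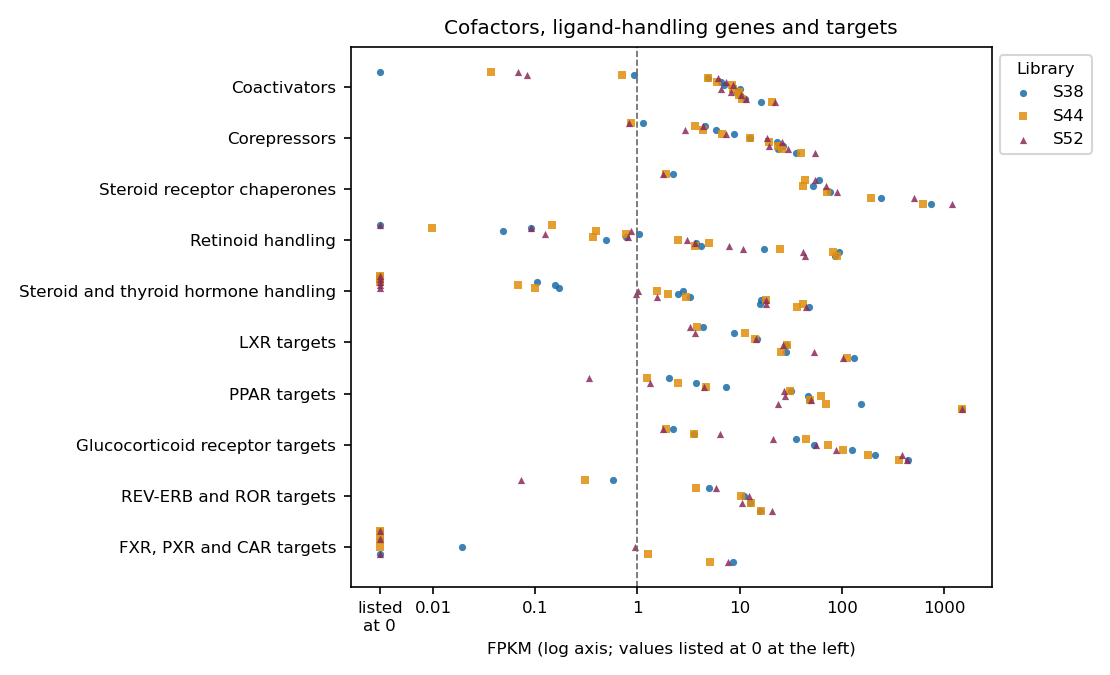
FPKM on a log axis of the genes in 10 lists of cofactors, ligand-handling genes and known targets, 1 row of points per list, in S38, S44 and S52, with values listed at 0 at the left and a dashed line at 1 FPKM. All genes of the chaperone, LXR, PPAR and glucocorticoid receptor target lists have a mean of at least 1 FPKM, and 1 of 5 FXR, PXR and CAR targets does.

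The order of the detected receptors was only partly resolved. Of the 25 pairs of neighbours in the order of means, 18 had overlapping ranges, among them *Thra* and *Nr1h2*, *Nr3c1* and *Nr1d1*, and all neighbours from *Esrra* down to *Nr3c2*. The 7 that did not overlap were *Nr4a1* above *Thra*, *Nr1h2* above *Rarg*, *Rarg* above *Nr3c1*, *Rxrb* above *Rara*, *Rara* above *Rxra*, *Nr2f6* above *Esrra* and *Nr3c2* above *Nr2f2*. The order was the same in each of the 3 libraries for 10 of these 25 pairs, which are the closest in level by construction. Of 28 pairs of paralogues with a detected member, 26 had the same order in each of the 3 libraries, and the exceptions were the REV-ERB and the TR2/TR4 pairs. Many of these pairs set a detected gene against one near 0, so the counts are not comparable. With 3 libraries the smallest two-sided exact sign test p is 0.25, so no single pair could pass a test.

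Few of the detected receptors differed widely between libraries. The highest library was over 2-fold above the lowest for 1 of 26 receptors (3.85%), beside 20.1% of the 11770 detected genes, and the median CV was 13.9% beside 17.6%. The 1 receptor was *Nr2f1*, with a fold of 2.22. With each library rescaled to a common sum, the count was 5 of 26 receptors (19.2%), beside 27.7% of the detected genes. Rescaled by the median ratio over genes, it was 1 of 26 (3.85%), beside 19.8%. The difference in shares was not tested.

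S52, the library with the least RNA of alveolar type 2, airway and platelet genes, was the lowest library for 10 of 26 receptors (38.5%), beside 46.3% of detected genes, and the highest for 11 (42.3%), beside 33.9%. With each library rescaled to a common sum it was the highest for 4 (15.4%), beside 20.5%. Rescaled by the median ratio over genes, it was the highest for 12 (46.2%), beside 38.6%. It lay farther from the nearer of S38 and S44 than these lay apart for 10 receptors (38.5%), beside 51.7% of detected genes. Of these 10, 6 were higher in S52. *Nr1d1* was higher by a log2 ratio of 0.68 against S38 and 0.80 against S44, *Thra* by 0.64 and 0.58, and *Nr1d2* by 0.44 and 0.44. *Rara*, *Rora* and *Rxrb* were higher by less, at log2 ratios of 0.05 to 0.30. The lower 4 were *Nr2f1*, with log2 ratios of -1.15 and -0.82, *Pgr*, with -0.70 and -0.60, *Nr2c2*, with -0.31 and -0.41, and *Nr3c1*, with -0.22 and -0.34. When each library was rescaled to the same sum, *Thra*, *Nr1d1* and *Nr1d2* remained highest in S52 and *Nr2f1*, *Pgr*, *Nr2c2* and *Nr3c1* remained lowest, whereas *Rara*, *Rora* and *Rxrb* became highest in S38. By the median ratio, *Rara*, *Rora* and *Rxrb* stayed highest in S52. The part of the lower alveolar type 2, airway, platelet, erythroid and leukocyte RNA of S52 in these values was not tested.

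**Figure D4:**
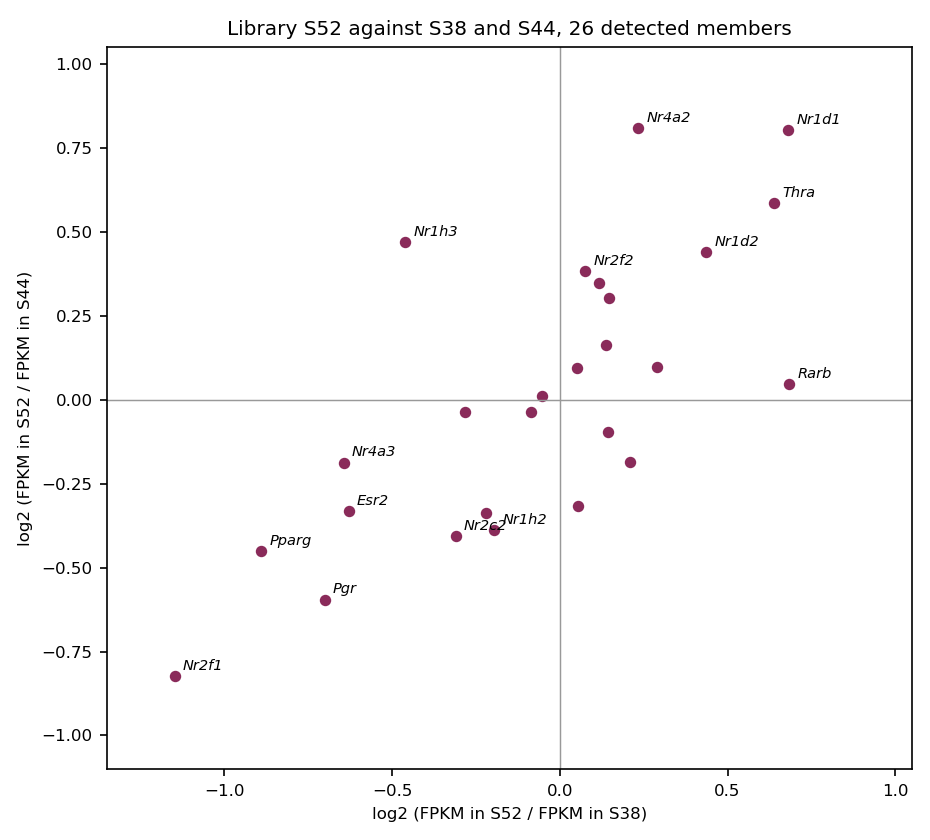
The log2 ratio of FPKM in S52 to S38 (x axis) against that of S52 to S44 (y axis) for the 26 detected receptors, 1 point per gene, with names where either ratio exceeds 0.35 in size. *Nr1d1*, *Thra* and *Nr1d2* lie at the upper right and *Nr2f1* and *Pgr* at the lower left. The axes share S52, so the points tend to a diagonal by construction.

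Several receptor genes lie near each other in the genome (GRCm38, GENCODE). On chromosome 11, *Nr1d1* overlaps *Thra* and lies 152 kb from *Rara*. On chromosome 14, *Thrb* lies 841 kb from *Rarb* and 166 kb from *Nr1d2*. *Nr4a1* and *Rarg* lie 960 kb apart on chromosome 15, and *Nr5a1* and *Nr6a1* 8.83 kb apart on chromosome 2. Levels of neighbours ranged from far apart, with *Thrb* at 0.425 FPKM beside *Nr1d2* at 28.8 FPKM, to both undetected, as for *Nr5a1* and *Nr6a1*.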

How the data were processed

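RNA of 3 adult lung EC libraries was sequenced as poly-A selected, non-stranded, paired reads of 51 bp. The authors deposited 1 table of FPKM values per gene symbol on mm10. Per the submitters' processing notes, which give no roles, bcl2fastq 2.17, FastQC 0.11.5, Trimmomatic 0.36, TopHat2 2.1.0 and Cufflinks 2.2.1 were used. The study's methods describe alignment with STAR and counting with HTSeq, and which of these made the FPKM values and which gene annotation was used are not given in the sources used here. The 3 adult lung EC columns were all used.

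Values were read as deposited, without rescaling or pseudocount, in python 3.11.15 with pandas 2.3.3 and numpy 2.4.6. FPKM are not counts, so no count model was fitted. With 1 condition and 3 libraries, no comparison between groups was possible, and means, SDs, orders, shares and counts are descriptions. Detection meant a mean of at least 1 FPKM. The members and lists were chosen with earlier results of these data known. All 46 receptors are named, and the highest 3 genes by mean, from 1 FPKM up, of each list of cofactors, ligand-handling genes and targets, apart from an item that is not reported here. *Hsd11b2*, *Dio1*, *Dio2*, *Dio3*, *Ppargc1a*, *Ppargc1b*, *Ncor1* and *Fkbp5* were named after their values were seen, as were genes that overlap a receptor and the marker genes given by name.

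Depth was estimated from low FPKM of single-transcript genes, where 72.3% to 76.7% of them came within 0.15 of whole fragments. The method was tested on simulated data made of whole counts with the gene lengths that the fit assumes. That test does not cover errors of gene length or annotation in the deposited values. Fragment numbers per gene use the longest transcript and are approximate. Limits for 0 use 3 fragments and cover counting error only. Exon overlaps and positions came from GENCODE M21, where all 46 symbols matched. Promoters were the 250 bases before RefSeq starts on GRCm38.p6, searched on both strands. *Thra*, *Hnf4g*, *Nr3c1* and *Nr5a1* had no entry in that table. Alternatives were other detection thresholds, folds and scalings, a pseudocount of 1, leaving out each library and, added after the data were seen, leaving out receptors that share exons with another gene.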

Additional observations from a re-analysis of the deposited data

How the results depend on the processing

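Of 61 alternatives over 7 results, 42 stayed within 1.5 times (counts) or 1 SD between libraries (shares, median) of the reported value and 19 moved. The number of receptors detected was 36, 28, 20 and 11 with thresholds of 0.1, 0.5, 3 and 10 FPKM. The number of detected receptors over 2-fold between libraries, reported as 1, depended most on the settings. It was 5 with each library rescaled to a sum of 1000000 (*Nr4a2*, *Nr1h3*, *Pgr*, *Pparg* and *Nr2f1*), 6 and 2 with thresholds of 0.1 and 0.5 FPKM, 0 with thresholds of 3 or 10 FPKM or of 1 FPKM in each library, 0 on FPKM + 1, 10 for over 1.5-fold and 0 for over 3-fold. Rescaling by the median ratio kept it at 1. Leaving out 1 library gave 0 to 1, with 0 without S38 or S52. The number of receptors lowest in S52 was 6 and 2 with thresholds of 3 and 10 FPKM, since fewer genes were counted, and has no value without S52. The paralogue pairs in 1 order numbered 15 with a threshold of 10 FPKM. The median of the detected receptors was 5.0 after rescaling to a common sum and 6.74 by the median ratio. It was 4.17, 11.9 and 29.1 FPKM with thresholds of 0.1, 3 and 10 FPKM. The NR4A share and the *Rxra* share moved by less than the spread between libraries under the alternatives tried. Rescaling to a common sum moved the median detected gene to a log2 ratio of -0.39 for S52 over S38 and 0.11 for S52 over S44, from -0.09 and -0.06 as deposited, and the receptors highest in S52 from 11 to 4. By the median ratio these log2 ratios were -0.02 and -0.02, and 12 receptors were highest in S52. Ratios within a library cannot move with scaling and were not rerun. Leaving out receptors that share exons with another gene, chosen after seeing the data, left 18 detected. No paired analysis was possible because there is 1 group.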
